A study of Mus musculus with 18 samples.

Results

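The genes described here are 33 targets, regulators and partners of activating transcription factor 4 (ATF4) and of the unfolded protein response, listed by name for their known place in these pathways. The list was drawn up with earlier results of these data known. These genes were followed in bone marrow-derived macrophages (BMM) on Illumina MouseWG-6 v2 bead arrays. Of the 33 genes, 32 had a probe in the probe table used here (Slc7a5 had none), and 30 had a probe detected on at least 1 array and were tested among 12417 genes. Psph and Slc7a1 were detected on 0 of the 18 arrays, with 1 and 2 probes. By role, the 30 genes were 7 transcription factors, 6 effectors of the stress response, 6 enzymes of amino acid and one-carbon metabolism, 2 amino acid transporter chains and 9 chaperones and folding factors of the endoplasmic reticulum (ER).

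The 6 groups held 3 arrays each: Nur77-KO BMM and WT BMM that were treated with LPS (100 ng/ml, 8 h), treated with IL-4 (50 ng/ml, 8 h) or left unstimulated (labelled 0 h). Nur77 is the nuclear receptor encoded by Nr4a1. All mice were on a C57BL/6 background, and all cells were cultured for 8 days in medium conditioned by L929 cells, a source of the macrophage growth factor M-CSF. The marrow of 3 mice per genotype made up a batch, but the sources do not tie arrays to mice or cultures, so a p-value here measures only the spread between these arrays. As the unstimulated arrays are labelled 0 h and the treated ones 8 h, stimulus and time cannot be told apart against them. The comparison matched in time is LPS against IL-4. Values are log2 intensities, and a gene was called at a Benjamini-Hochberg adjusted p under 0.05 over all 12417 genes in limma's moderated test.

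ATF4 is the main transcription factor of the integrated stress response. The kinases PERK, GCN2, PKR and HRI, which sense unfolded protein in the ER, amino acid shortage, double-stranded RNA and haem shortage, all phosphorylate the alpha subunit of eIF2. General translation then falls while the ATF4 mRNA is translated more, and ATF4, bound to C/EBP partners, raises genes for amino acid synthesis and uptake and for the ending of the response. Unfolded protein in the ER also activates ATF6 and, through IRE1, XBP1, which raise ER chaperones and the machinery that removes misfolded protein. Since ATF4 output is set largely by translation and XBP1 output by splicing, the RNA levels of Atf4 and Xbp1 measured here do not stand for the activity of either factor.

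The letters through which these factors are known to act were looked for in the RefSeq promoters (GRCm38.p6, 250 bases before to 50 bases after each start site) of 30 members, all but Aldh1l2, Atf6 and Slc7a5. The C/EBP-ATF response element, TGATGNAA or TTNCATCA on the other strand, was present in 7 of the 30 (23.3%), against 4.51% of 27025 genes and 3.97% of 32851 promoters. The 7 were Asns, Chac1, Herpud1, Nupr1, Slc7a11, Trib3 and Vldlr. The members are known ATF4 targets in part because such elements were found in them, so this share is a description, and a match is not a bound site. The stretches around the matches are shown because Slc7a11, Nupr1, Chac1, Vldlr and Trib3 are the members of this kind on which the results below turn. They are written 5′ to 3′ on the strand of the gene with the element in capitals, and the start site counts as position 0.
Slc7a11 (chr3:50443646-50443705, minus strand, element at -66 to -59, with its second element at -47 to -40 in lower case): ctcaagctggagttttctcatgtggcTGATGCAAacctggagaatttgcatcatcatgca
Nupr1 (chr7:126625547-126625606, minus strand, element at -110 to -103): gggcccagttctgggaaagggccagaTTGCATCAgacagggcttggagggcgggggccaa
Chac1 (chr2:119351023-119351082, plus strand, element at -193 to -186): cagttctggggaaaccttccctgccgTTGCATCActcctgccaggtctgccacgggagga
Vldlr (chr19:27216794-27216853, plus strand, element at -200 to -193 of the later of its listed start sites): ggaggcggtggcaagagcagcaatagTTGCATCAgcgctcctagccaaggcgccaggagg
Trib3 (chr2:152344013-152344072, minus strand, element at 14 to 21): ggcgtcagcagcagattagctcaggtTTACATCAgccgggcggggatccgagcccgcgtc
Asns (chr6:7693199-7693258, minus strand, element at -23 to -16): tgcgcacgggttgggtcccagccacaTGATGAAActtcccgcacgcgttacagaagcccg
The Nupr1, Chac1 and Vldlr promoters share the run TTGCATCA, and Slc7a11 carries it in its second element, while Asns holds TGATGAAA on the strand of the gene.

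The ER stress response element, CCAAT and CCACG with any 9 bases between them, or on the other strand CGTGG and ATTGG at that spacing, lay in the promoters of 5 members (16.7%), Calr, Dnajc3, Hsp90b1, Hspa5 and Pdia6, against 0.137% of the 27025 genes and 0.119% of the promoters. Herpud1 was the member with the second form of this element, ATTGG and CCACG, or CGTGG and CCAAT, with any 1 base between them (0.0444% of genes and 0.0365% of promoters). None of the printed elements overlaps another. Herpud1 (chr8:94386179-94386478, plus strand) is the member whose promoter holds an element of each kind, and its 300 bases are given whole with both in capitals, the C/EBP-ATF element at -112 to -105 and the second form of the ER stress element at -52 to -42; Hspa5, which encodes the chaperone BiP, and Dnajc3 follow for comparison.
Herpud1: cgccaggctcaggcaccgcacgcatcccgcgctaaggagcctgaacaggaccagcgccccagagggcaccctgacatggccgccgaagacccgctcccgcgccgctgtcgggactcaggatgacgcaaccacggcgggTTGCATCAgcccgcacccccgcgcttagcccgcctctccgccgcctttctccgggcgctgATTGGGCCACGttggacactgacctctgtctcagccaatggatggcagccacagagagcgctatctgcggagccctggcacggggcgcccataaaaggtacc
Hspa5 (chr2:34771999-34772069, plus strand, element at -65 to -47): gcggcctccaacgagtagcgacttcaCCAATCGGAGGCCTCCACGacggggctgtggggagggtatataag
Dnajc3 (chr14:118937801-118937871, plus strand, element at -105 to -87): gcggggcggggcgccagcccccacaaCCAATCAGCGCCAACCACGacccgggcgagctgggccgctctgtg

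Between 11829 and 16283 probes were detected per array, and the macrophage markers were detected on all 18 arrays (8 of 8 with a probe). The Nr4a1 probe was detected on 0 arrays and so does not check the genotype labels. Neuropeptide Y (Npy) lay at 9.88 to 10.69 on 7 of the 9 arrays labelled Nur77-KO and at 4.52 to 5.35 on the 9 WT arrays. The arrays labelled Nur77-KO LPS replicate 1 and Nur77-KO IL-4 replicate 1 had Npy values of 5.72 and 4.61 and Eif2s3y (Y-linked) values of 4.53 and 4.59, both in or near the WT range (Eif2s3y at most 4.76 in WT, at least 8.91 on the other Nur77-KO arrays). As Eif2s3y was high on those 7 Nur77-KO arrays and low on all 9 WT arrays, genotype and sex cannot be told apart in any comparison of Nur77-KO with WT BMM. These 2 arrays and 2 others, WT LPS replicate 3 and WT IL-4 replicate 1, had the lowest mean of 8 stromal cell markers such as Col1a1 in their groups (5.16 to 5.53, against 6.24 to 8.08 on the other stimulated arrays), and each also had the highest mean of 7 neutrophil markers of its group (7.62 to 8.75, against 6.39 to 7.78). The results that rest on these 4 arrays are given with and without them. Beside a genotype difference, the summed stromal marker intensity ranged from 4202 to 4762 on unstimulated Nur77-KO arrays and from 1224 to 1424 on unstimulated WT arrays, with 7 to 8 and 5 to 6 of the 8 detected, while Lum and Postn were detected on 0 arrays. The mean log2 of the neutrophil markers was 7.59 to 7.75 on unstimulated Nur77-KO arrays and 5.85 to 6.28 on unstimulated WT arrays. In such bulk samples, fewer cells of a type and less RNA per cell cannot be told apart.

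Some of these genes were higher and others lower on the LPS arrays than on the unstimulated ones. Slc7a11, Nupr1, Ppp1r15a, Ddit3 and Slc3a2 rose in both genotypes, while Herpud1, Dnajb9, Pdia4 and Dnajc3 of the ER genes, together with Atf5, Cebpg and Xbp1, fell in both. In Nur77-KO BMM the calls of Slc3a2, Pdia4 and Dnajc3 were lost when the 2 arrays low in Npy were left out. They were also lost without Nur77-KO LPS replicate 1 alone, and were kept without the 4 arrays. In Nur77-KO BMM 12 of the 30 members were called against the unstimulated cells, 5 higher and 7 lower, and 37.8% of all genes were (14.1% higher, 23.7% lower). In WT BMM 14 were called, 5 higher and 9 lower, against 39.8% of all genes (15.5% higher, 24.3% lower). The share of members called was thus near that of all genes, and the median member changed by -0.45 in Nur77-KO and -0.39 in WT BMM, against -0.08 and -0.06 over all genes. The plot of members by group shows the values of 8 of these genes on every array.

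**Figure D1:**
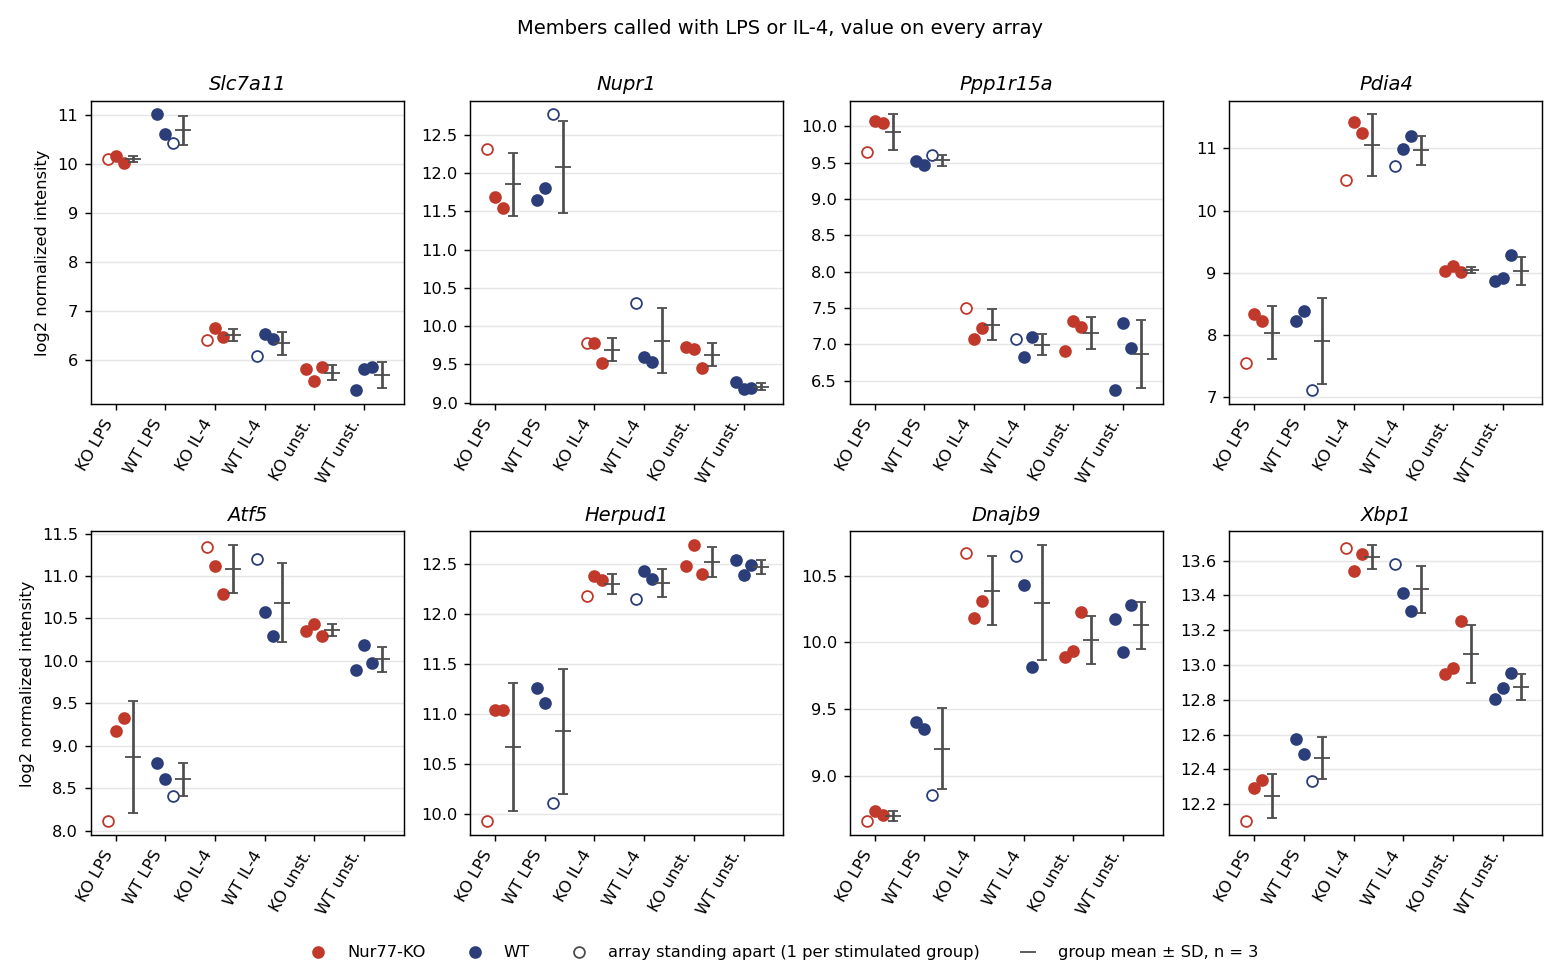
Log2 intensity (y axis) of 8 members on each of the 18 arrays by group (x axis), with Nur77-KO left of WT in each pair; bars are mean ± SD (n = 3 arrays) and open symbols are the 4 arrays with the lowest stromal markers of their groups. Slc7a11 and Ppp1r15a on the LPS arrays lie above every array without LPS, Pdia4 is highest on the IL-4 arrays, and Herpud1 is lowest on the LPS arrays.

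Slc7a11 encodes the light chain of the cystine-glutamate exchanger, and its 10.11, 10.17 and 10.03 on the Nur77-KO LPS arrays stood against 5.82, 5.57 and 5.86 on the unstimulated Nur77-KO arrays. In WT BMM it had 11.02, 10.62 and 10.43 with LPS, against 5.39, 5.83 and 5.87 without stimulation. The LPS arrays lay above the unstimulated ones without overlap, with log2 fold changes of 4.35 (SE 0.18, limma, adjusted p = 2.96e-11) in Nur77-KO and 4.997 (SE 0.18, adjusted p = 5.91e-12) in WT BMM. Another probe of Slc7a11, detected on all 18 arrays, rose by 3.61 and 4.11. Slc3a2, the heavy chain that carries Slc7a11 and other transporters to the membrane, had 8.87, 8.44 and 8.20 with LPS against 7.20, 7.37 and 7.45 in Nur77-KO BMM, and 9.12, 9.12 and 7.79 against 7.52, 7.02 and 7.79 in WT BMM. Its arrays were separate in Nur77-KO BMM (1.16, SE 0.41, adjusted p = 0.0349) and overlapped at 7.79 in WT BMM (1.23, SE 0.41, adjusted p = 0.0248). Both genotypes thus showed higher RNA for both chains of the exchanger in the main fit, far more so for Slc7a11. Over 32 alternative settings of processing or left-out arrays, Slc3a2 kept its call in 24 in Nur77-KO and 27 in WT BMM. Slc7a11 kept its call in all 32 in each genotype.

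Among the regulators, Nupr1, which encodes a small stress-induced chromatin protein, had 12.32, 11.69 and 11.54 on the Nur77-KO LPS arrays and 9.72, 9.70 and 9.45 on the unstimulated Nur77-KO arrays. In WT BMM the values were 11.66, 11.81 and 12.77 with LPS and 9.27, 9.18 and 9.19 without, and the changes were 2.23 (SE 0.27, adjusted p = 7.15e-06) in Nur77-KO and 2.87 (SE 0.27, adjusted p = 3.86e-07) in WT. No LPS array overlapped an unstimulated one, and the array farthest up in each LPS group was the one with the lowest stromal markers. Ppp1r15a (GADD34), which brings a phosphatase to eIF2 and so ends the translational block, had 9.64, 10.08 and 10.05 with LPS against 6.90, 7.31 and 7.24 in Nur77-KO BMM, and 9.52, 9.46 and 9.61 against 6.36, 7.29 and 6.95 in WT BMM. Its log2 fold change was 2.77 in Nur77-KO (SE 0.21, adjusted p = 2.95e-08) and 2.66 in WT BMM (adjusted p = 4e-08). Every LPS array thus stood above every unstimulated one in both genotypes. Ddit3 (CHOP), the C/EBP factor that accompanies prolonged ER stress, had 8.91, 9.60 and 9.88 against 8.51, 8.27 and 8.20 in Nur77-KO BMM and 9.002, 8.99 and 9.59 against 7.99, 8.53 and 8.02 in WT BMM. Its rise of 1.14 (adjusted p = 0.0157) and 1.01 (adjusted p = 0.0281), with an SE of 0.35, was smaller than those of Nupr1 and Ppp1r15a, and against IL-4, the comparison matched in time, Ddit3 was not called (0.47 and 0.18).

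Atf4 itself had values of 11.24 to 12.14 on the 6 LPS arrays and 11.23 to 11.72 on the 6 unstimulated arrays. It was not called (0.27, 95% interval -0.40 to 0.94, adjusted p = 0.56 in Nur77-KO, and 0.33, -0.33 to 1.00, adjusted p = 0.442 in WT). A second, dimmer Atf4 probe detected on all 18 arrays differed by 0.77 and 0.66. Without the 4 arrays the tested probe rose by 0.49 (adjusted p = 0.0161) and 0.62 (adjusted p = 0.00359). Atf5, a factor related to ATF4 that is linked to the mitochondrial stress response, fell to 8.11, 9.17 and 9.33 with LPS, against 10.36, 10.43 and 10.30 without in Nur77-KO BMM, and to 8.80, 8.61 and 8.41 against 9.90, 10.18 and 9.97 in WT BMM. Atf5 thus changed by -1.49 in Nur77-KO (SE 0.28, adjusted p = 0.000433) and -1.41 in WT BMM (adjusted p = 0.000648), with no overlap between arrays. Xbp1 had 12.10, 12.30 and 12.34 against 12.95, 12.98 and 13.26 in Nur77-KO BMM (-0.82, SE 0.13, adjusted p = 0.000115) and 12.57, 12.49 and 12.33 against 12.80, 12.87 and 12.95 in WT BMM (-0.41, SE 0.13, adjusted p = 0.0203). Cebpg, the C/EBP partner of ATF4 at its elements, fell by 0.76 in Nur77-KO (adjusted p = 0.00109) and by 0.89 in WT BMM (adjusted p = 0.000257), though a second, dimmer Cebpg probe differed by 0.61 and -0.01. Atf6 was not detected on the 6 LPS arrays. Of the 7 factors, 2 rose, 3 fell and Atf4 and Atf6 were not called, the same counts in each genotype.

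Of the 9 ER genes, 4 fell in Nur77-KO cells, 5 fell in WT cells and 0 rose, with median changes of -0.60 and -0.64. Herpud1, an ER membrane protein of the degradation machinery, had 9.92, 11.04 and 11.04 on the Nur77-KO LPS arrays and 12.48, 12.69 and 12.40 on the unstimulated Nur77-KO arrays. The WT values were 11.26, 11.11 and 10.11 with LPS and 12.54, 12.40 and 12.49 without. That is a fall of 1.86 (SE 0.29, adjusted p = 7.9e-05) in Nur77-KO and of 1.65 (SE 0.29, adjusted p = 0.000224) in WT BMM, and a second Herpud1 probe gave -1.88 and -1.68. Dnajb9 (ERdj4), a co-chaperone that is a well known XBP1 target, had 8.66, 8.73 and 8.70 against 9.89, 9.94 and 10.23 in Nur77-KO BMM (-1.32, SE 0.21, adjusted p = 0.000107) and 9.40, 9.35 and 8.86 against 10.18, 9.93 and 10.28 in WT BMM (-0.92, SE 0.21, adjusted p = 0.00214). Pdia4, a protein disulfide isomerase, had 7.55, 8.35 and 8.22 against 9.02, 9.11 and 9.02 in Nur77-KO BMM (-1.01, SE 0.31, adjusted p = 0.0166) and 8.23, 8.38 and 7.11 against 8.87, 8.92 and 9.28 in WT BMM (-1.12, SE 0.31, adjusted p = 0.00843). All of these arrays were separate, and in Herpud1 and Pdia4 the lowest LPS array of each genotype was the one with the lowest stromal markers.

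Sdf2l1, a cofactor of the BiP cycle, was called in WT BMM, at 7.82, 8.27 and 7.28 with LPS against 9.48, 9.12 and 9.24 (-1.49, SE 0.36, adjusted p = 0.00338). In Nur77-KO BMM its 7.68, 8.07 and 8.40 with LPS also lay below the unstimulated 8.95, 9.04 and 8.81, but the change missed the threshold (-0.88, SE 0.36, adjusted p = 0.0667). Dnajc3 (p58IPK), an inhibitor of PERK, was lower by 0.49 in both genotypes (-0.49, adjusted p = 0.0264 in Nur77-KO and 0.0249 in WT). Hspa5, Hsp90b1 (GRP94), Pdia6 and Calr (calreticulin) were not called, with changes of -0.60 to -0.07 in Nur77-KO and -0.64 to 0.68 in WT BMM. Of the 5 genes whose promoters held the first form of the ER stress element, Dnajc3 alone was thus called with LPS, while Herpud1, with the second form, was called in both genotypes.

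**Figure D2:**
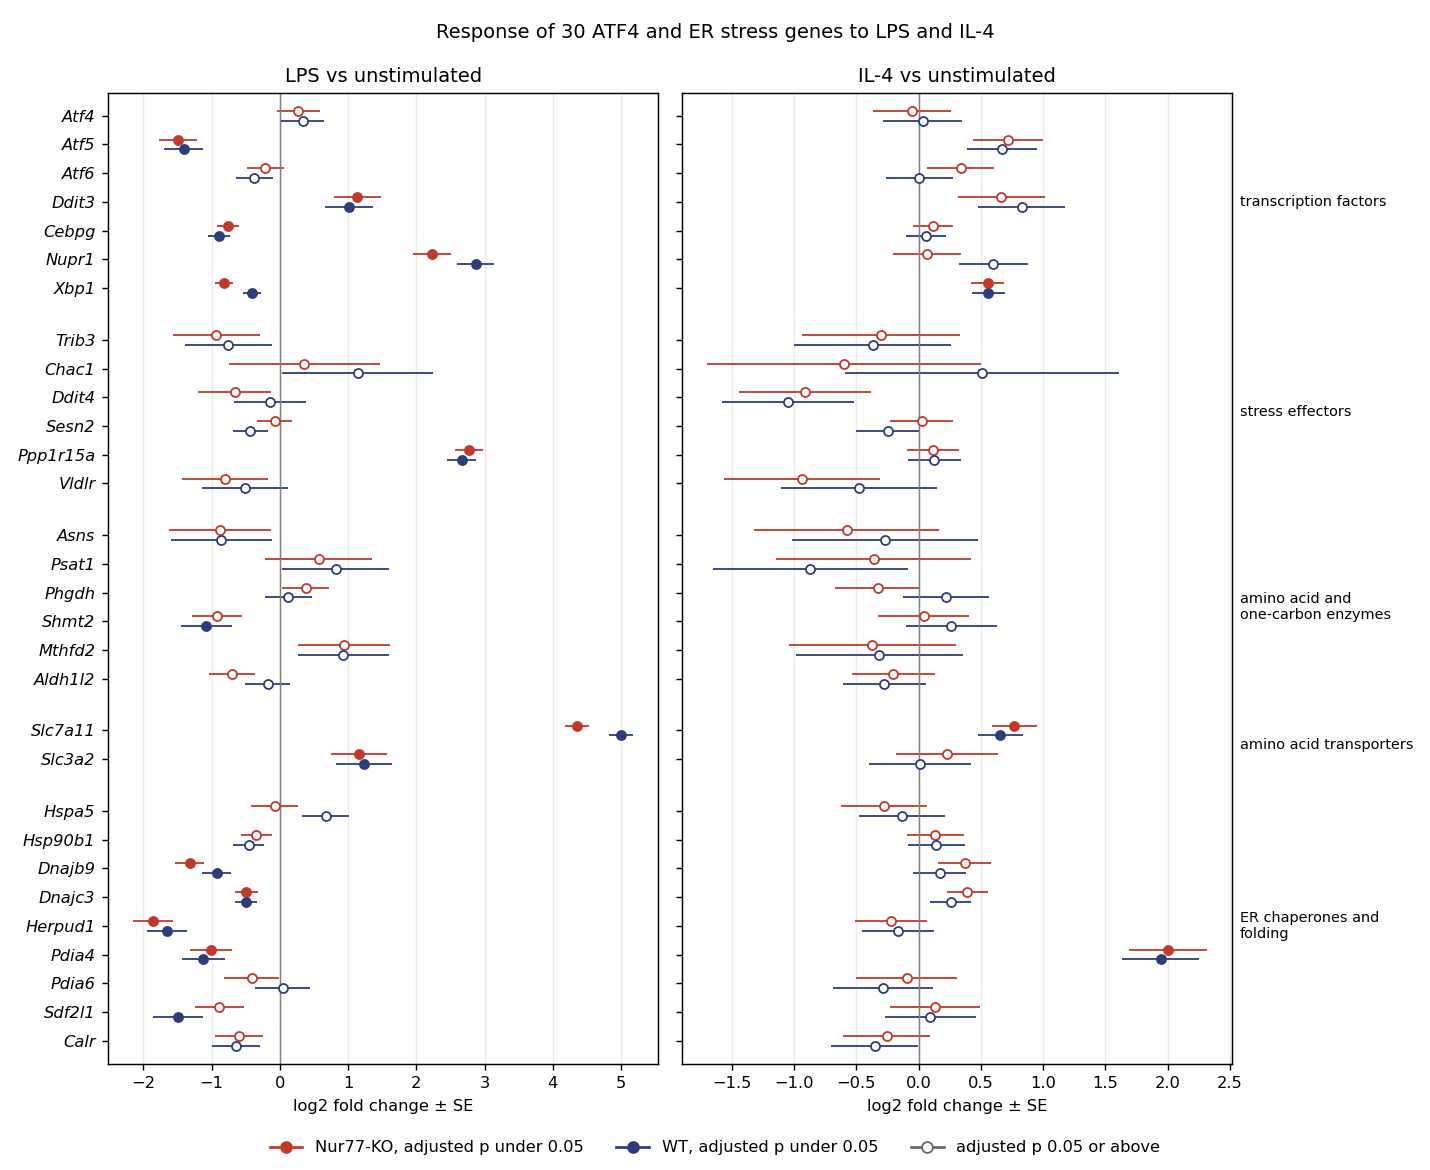
Log2 fold change ± SE (x axis) of the 30 tested members (rows) with LPS and with IL-4 against unstimulated BMM, Nur77-KO above WT in each row; filled points are called at an adjusted p under 0.05. With LPS, Slc7a11, Nupr1 and Ppp1r15a stand apart on the right, and Herpud1 and Atf5, with Sdf2l1 in WT BMM only, lie farthest to the left. With IL-4 Pdia4 is the member farthest to the right.

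The enzymes of serine, asparagine and one-carbon metabolism and most stress effectors were not called with LPS over all 18 arrays. The exception was Shmt2, the mitochondrial serine hydroxymethyltransferase, at 6.11, 5.70 and 4.90 with LPS against 6.89, 6.71 and 6.33 in WT BMM (-1.07, SE 0.37, adjusted p = 0.0279). In Nur77-KO BMM it had 4.97, 6.76 and 6.52 against 7.06, 6.95 and 6.99 (-0.91, adjusted p = 0.0614). Trib3, Vldlr, Ddit4, Sesn2 and Chac1 differed by -0.93 to 0.36 in Nur77-KO and -0.75 to 1.14 in WT BMM, and Asns, Aldh1l2, Phgdh, Psat1 and Mthfd2 by -0.87 to 0.94 and -0.86 to 0.93. Sesn2 (sestrin 2) and Phgdh, the first enzyme of serine synthesis, were dim throughout, at 5.05 to 6.23 and 4.94 to 6.57 over the 18 arrays, and were detected on 10 and 13 of them. Asns, Psat1 and Chac1 had SEs of 0.74, 0.78 and 1.10, the widest among the members, and in each of them single arrays lay far below the others of their group. Without the 4 arrays the count with LPS was 17 members in Nur77-KO BMM (45.0% of all genes) and 21 in WT BMM (45.8%). The members added in both genotypes were Atf4, Chac1, Psat1 and Mthfd2. Chac1, which degrades glutathione, then rose by 1.80 (SE 0.34, adjusted p = 0.000889) in Nur77-KO and by 2.20 (SE 0.34, adjusted p = 0.000172) in WT BMM. Psat1 (phosphoserine aminotransferase) rose by 0.91 (adjusted p = 2.56e-05) and 1.16 (adjusted p = 2.89e-06), and Mthfd2 (mitochondrial folate dehydrogenase) by 1.27 (adjusted p = 4.64e-06) and 1.16 (adjusted p = 9.19e-06). The direction of Chac1, Psat1 and Mthfd2 was upward in the fit of 18 arrays too, and the 4 arrays were picked after their values had been seen.

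With IL-4, 3 members rose in each genotype and 0 fell, against 5.55% of all genes called in Nur77-KO BMM (3.12% higher) and 6.76% in WT BMM (3.68% higher). The same members, Pdia4, Slc7a11 and Xbp1, were called in both. Over 32 alternative settings of processing or left-out arrays, besides leaving out the 4 arrays, Pdia4 kept its call in 31 in each genotype. Slc7a11 kept its call in 26 in Nur77-KO and 18 in WT BMM, and Xbp1 in 25 and 26. Pdia4 had 10.49, 11.43 and 11.24 on the Nur77-KO IL-4 arrays, against 9.02, 9.11 and 9.02 on the unstimulated ones (2.00, SE 0.31, adjusted p = 0.000775). In WT BMM the values were 10.72, 10.99 and 11.19 against 8.87, 8.92 and 9.28 (1.94, SE 0.31, adjusted p = 0.000927). Pdia4 was thus higher with IL-4 by nearly the same amount in both genotypes, without overlap, and no other ER gene was called: the median of the 9 ER genes was 0.13 in Nur77-KO and 0.10 in WT BMM. Xbp1 had 13.68, 13.54 and 13.64 against 12.95, 12.98 and 13.26 in Nur77-KO BMM (0.56, SE 0.13, adjusted p = 0.0197) and 13.58, 13.41 and 13.31 against 12.80, 12.87 and 12.95 in WT BMM (0.56, SE 0.13, adjusted p = 0.0159). Slc7a11 had 6.42, 6.66 and 6.48 against 5.82, 5.57 and 5.86 in Nur77-KO BMM (0.77, SE 0.18, adjusted p = 0.0173) and 6.08, 6.54 and 6.43 against 5.39, 5.83 and 5.87 in WT BMM (0.66, SE 0.18, adjusted p = 0.0371). Its probe detected on all 18 arrays changed by 0.29 and 0.24, less than the probe tested. Dimmer Slc7a11 probes, each detected on 6 arrays, changed by -0.07 and -0.19 in Nur77-KO and by 0.03 and 0.10 in WT BMM. At an unadjusted p under 0.05 and a fold of at least 1.4 the members numbered 4 in Nur77-KO (11.9% of all genes) and 6 in WT BMM (14.0%). Without the 4 arrays 8 members were called in Nur77-KO (12.4% of all genes) and 6 in WT BMM (16.2%), and all 3 members above stayed called; Mthfd2 was added in both (0.44, adjusted p = 0.0438, and 0.63, adjusted p = 0.00536).

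LPS against IL-4, both at 8 h, set the same members apart. In Nur77-KO BMM 11 were called, 3 higher and 8 lower with LPS (36.8% of all genes, 13.8% higher and 23.0% lower), and in WT BMM 13, 4 higher and 9 lower (38.4%, 15.1% and 23.4%). Pdia4 was lower with LPS by 3.02 (-3.02, SE 0.31, adjusted p = 9.94e-07) in Nur77-KO and by 3.06 (-3.06, SE 0.31, adjusted p = 7.66e-07) in WT BMM, the largest fall among the members in each genotype. Atf5, at 11.34, 11.12 and 10.79 on the Nur77-KO IL-4 arrays and 11.20, 10.58 and 10.29 on the WT IL-4 arrays, was lower with LPS by 2.21 and 2.08 (-2.21, adjusted p = 8.93e-06, and -2.08, adjusted p = 1.55e-05). Xbp1 differed by -1.37 (SE 0.13, adjusted p = 4.79e-07) and -0.97 (SE 0.13, adjusted p = 1.83e-05), Dnajb9 by -1.69 (adjusted p = 8.39e-06) and -1.09 (adjusted p = 0.000548), and Herpud1 by -1.64 (adjusted p = 0.000264) and -1.49 (adjusted p = 0.000567). On the other side, Slc7a11 was higher with LPS by 3.58 (adjusted p = 2.64e-10) and 4.34 (adjusted p = 2.95e-11), Ppp1r15a by 2.65 and 2.53, and Nupr1 by 2.16 and 2.27. In the time-matched comparison Slc7a11, Nupr1 and Ppp1r15a were thus higher with LPS in both genotypes, and Pdia4, Herpud1, Dnajb9, Xbp1 and Atf5 lower. Slc3a2 was called in WT (1.22, adjusted p = 0.027) but not in Nur77-KO BMM (0.93, adjusted p = 0.0898), and Hspa5, Hsp90b1, Pdia6 and Calr were called in neither, with Hspa5 at 0.21 and 0.81. Without the 4 arrays 17 members were called in Nur77-KO (40.4% of all genes) and 21 in WT BMM (43.2%). The IL-4 arrays of Ddit3, which was not called here, reached 9.48 in Nur77-KO and 9.89 in WT BMM.

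Between Nur77-KO and WT BMM, which differed in Eif2s3y as well, 0 of the 30 members were called over all 18 arrays in each state, with LPS (0.193% of all genes called), with IL-4 (0.0403%) or unstimulated (0.105%). At an unadjusted p under 0.05 the members numbered 3, 1 and 2, against 8.38%, 4.73% and 5.06% of all genes, and the same numbers had a fold of at least 1.4 as well, against 6.24%, 3.24% and 3.56%. The largest differences were in Chac1, Vldlr, Aldh1l2, Ddit4 and Trib3, all higher in unstimulated Nur77-KO BMM without overlap; these genes and Hspa5 were picked for description after their values were seen. In all, 10 of the 30 members lay above WT without overlap in unstimulated cells (11.1% of all genes did) and 1, Sdf2l1, below (7.94%). With LPS 1 member lay wholly above WT, Ppp1r15a (6.39% of all genes), and 2 below (5.64%), Slc7a11 and Dnajb9, and with IL-4 1 lay above, Aldh1l2 (4.18%), and 0 below (3.50%).

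**Figure D3:**
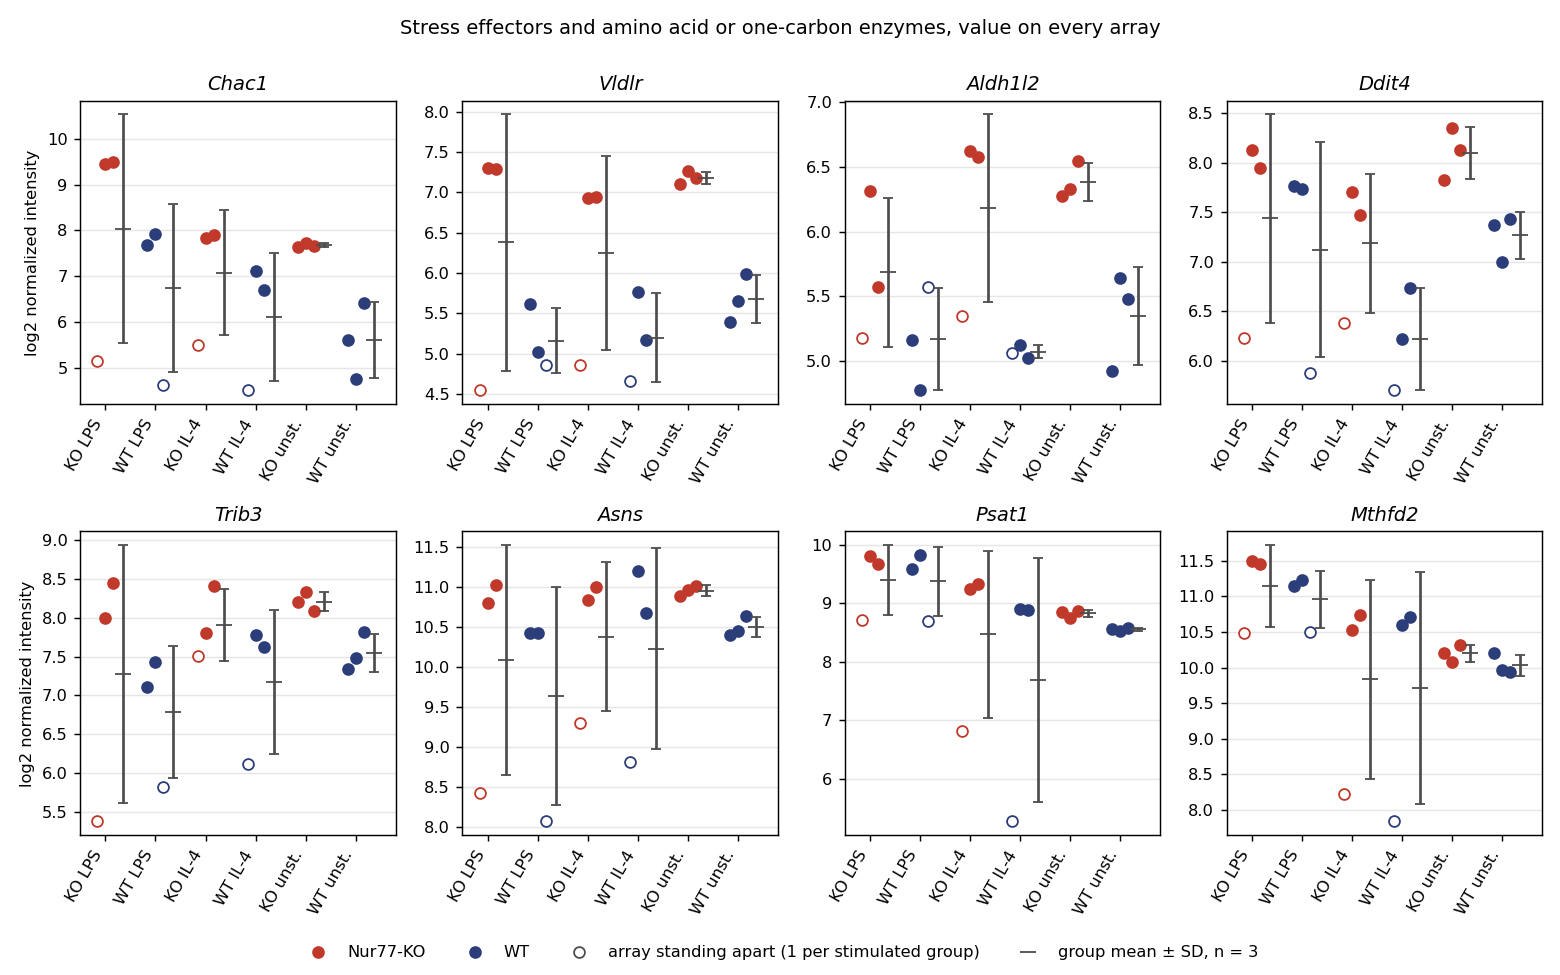
Log2 intensity (y axis) of 8 members on each of the 18 arrays by group (x axis), with Nur77-KO left of WT in each pair; bars are mean ± SD (n = 3 arrays) and open symbols are the 4 arrays with the lowest stromal markers of their groups. The open symbols of Chac1, Asns and Psat1 lie below the other arrays of their groups, and the unstimulated Nur77-KO arrays of Chac1, Vldlr and Aldh1l2 lie above the unstimulated WT arrays.

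Chac1 had 7.64, 7.73 and 7.66 on the unstimulated Nur77-KO arrays and 5.61, 4.77 and 6.43 on the unstimulated WT arrays, a difference of 2.07 (SE 1.10, adjusted p = 1). Its Nur77-KO LPS arrays had 5.15, 9.45 and 9.50, against 7.69, 7.92 and 4.62 on the WT LPS arrays. In each LPS group the array among the 4 (Nur77-KO replicate 1, WT replicate 3) lay far below the other 2, and the difference of 1.29 had an interval of -1.05 to 3.63. Vldlr, a receptor for lipoproteins that is raised in ER stress, had 7.11, 7.26 and 7.17 against 5.39, 5.65 and 5.98 in unstimulated cells (1.51, SE 0.63, adjusted p = 0.857). With LPS it had 4.54, 7.30 and 7.29 on the Nur77-KO arrays against 5.61, 5.01 and 4.85 on the WT arrays. These arrays overlapped, and the difference of 1.22 was not called. Vldlr was detected on 2 of the 3 Nur77-KO LPS arrays and on 0 of the WT LPS arrays, which gives a bound on the means of at least 1.50-fold. The Vldlr values with IL-4 were 4.85, 6.93 and 6.95 in Nur77-KO and 4.66, 5.76 and 5.17 in WT BMM. In each Nur77-KO group the arrays with a high Npy value had Vldlr at 6.93 or more and the 2 with a low one at 4.85 or less.

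Aldh1l2, a mitochondrial folate enzyme, had 6.27, 6.33 and 6.55 in unstimulated Nur77-KO BMM against 4.92, 5.64 and 5.48 in WT BMM (1.04, SE 0.33, adjusted p = 0.503). With IL-4 it had 5.35, 6.62 and 6.58 against 5.06, 5.12 and 5.02, where it was not detected, at least 1.58-fold (1.11, SE 0.33, adjusted p = 0.609). Ddit4 (REDD1), an inhibitor of mTORC1, had 7.82, 8.35 and 8.13 against 7.37, 7.00 and 7.43 (0.83, SE 0.53), and Trib3, the pseudokinase that restrains ATF4, 8.20, 8.33 and 8.08 against 7.34, 7.48 and 7.81 (0.66, SE 0.63). By role, the median difference in unstimulated cells was 0.75 for the 6 stress effectors, 0.33 for the 6 enzymes and -0.05 for the 9 ER genes. Atf4 differed by 0.04 (interval -0.63 to 0.71), Ddit3 by 0.15 (-0.59 to 0.88) and Xbp1 by 0.19 (-0.09 to 0.47).

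Without the 4 arrays, a choice made after their values were seen, several of these members passed the test. The members too were listed with earlier results of these data known. Chac1, Vldlr and Ddit4 were each low on all 4 of these arrays, so the counts below are a description. Unstimulated Nur77-KO BMM had higher Vldlr (1.51, SE 0.19, adjusted p = 0.000835), Chac1 (2.07, SE 0.30, adjusted p = 0.00203), Aldh1l2 (1.04, SE 0.22, adjusted p = 0.0184) and Ddit4 (0.83, SE 0.18, adjusted p = 0.0214), 4 of 30 members where 3.79% of all genes were called. With LPS the 4 called members (5.31% of all genes) were Vldlr (1.98, adjusted p = 0.000609, at least 3.07-fold), Chac1 (1.67, adjusted p = 0.0219) and Trib3 (0.95, adjusted p = 0.0351), all higher, and Hspa5, lower by 1.24 (-1.24, adjusted p = 0.0452). With IL-4 the 3 (2.51%) were Vldlr (1.47, adjusted p = 0.00561), Aldh1l2 (1.53, adjusted p = 0.00813, at least 2.23-fold) and Ddit4 (1.11, adjusted p = 0.0173). Vldlr was the member called in all 3 states. Hspa5 had 6.86, 7.00 and 6.77 on the Nur77-KO LPS arrays and 8.03, 8.21 and 6.78 on the WT LPS arrays, of which the last is 1 of the 4. When the 2 arrays low in Npy were left out alone, Vldlr was called in all 3 states (1.51, adjusted p = 0.0119 unstimulated; 2.14, adjusted p = 0.00144 with LPS; 1.74, adjusted p = 0.0114 with IL-4) and Aldh1l2 with IL-4 (1.53, adjusted p = 0.0132), but Chac1 was not (adjusted p = 0.488, 0.147 and 0.601 for unstimulated, LPS and IL-4). A fit of the 6 unstimulated arrays by themselves called Vldlr (adjusted p = 0.00525), Chac1 (adjusted p = 0.0367) and Aldh1l2 (adjusted p = 0.0492), with 2.18% of all genes called. Vldlr and Aldh1l2 were dim, detected on 9 and 7 arrays in all. Each was detected on 3 unstimulated Nur77-KO arrays and 1 unstimulated WT array, and Chac1 on 3 and 2. Over all arrays without background correction, the unstimulated differences were 0.55 for Vldlr, 0.31 for Aldh1l2, 0.83 for Chac1 and 0.48 for Ddit4. The sizes of these 4 differences thus depend on the background correction.

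**Figure D4:**
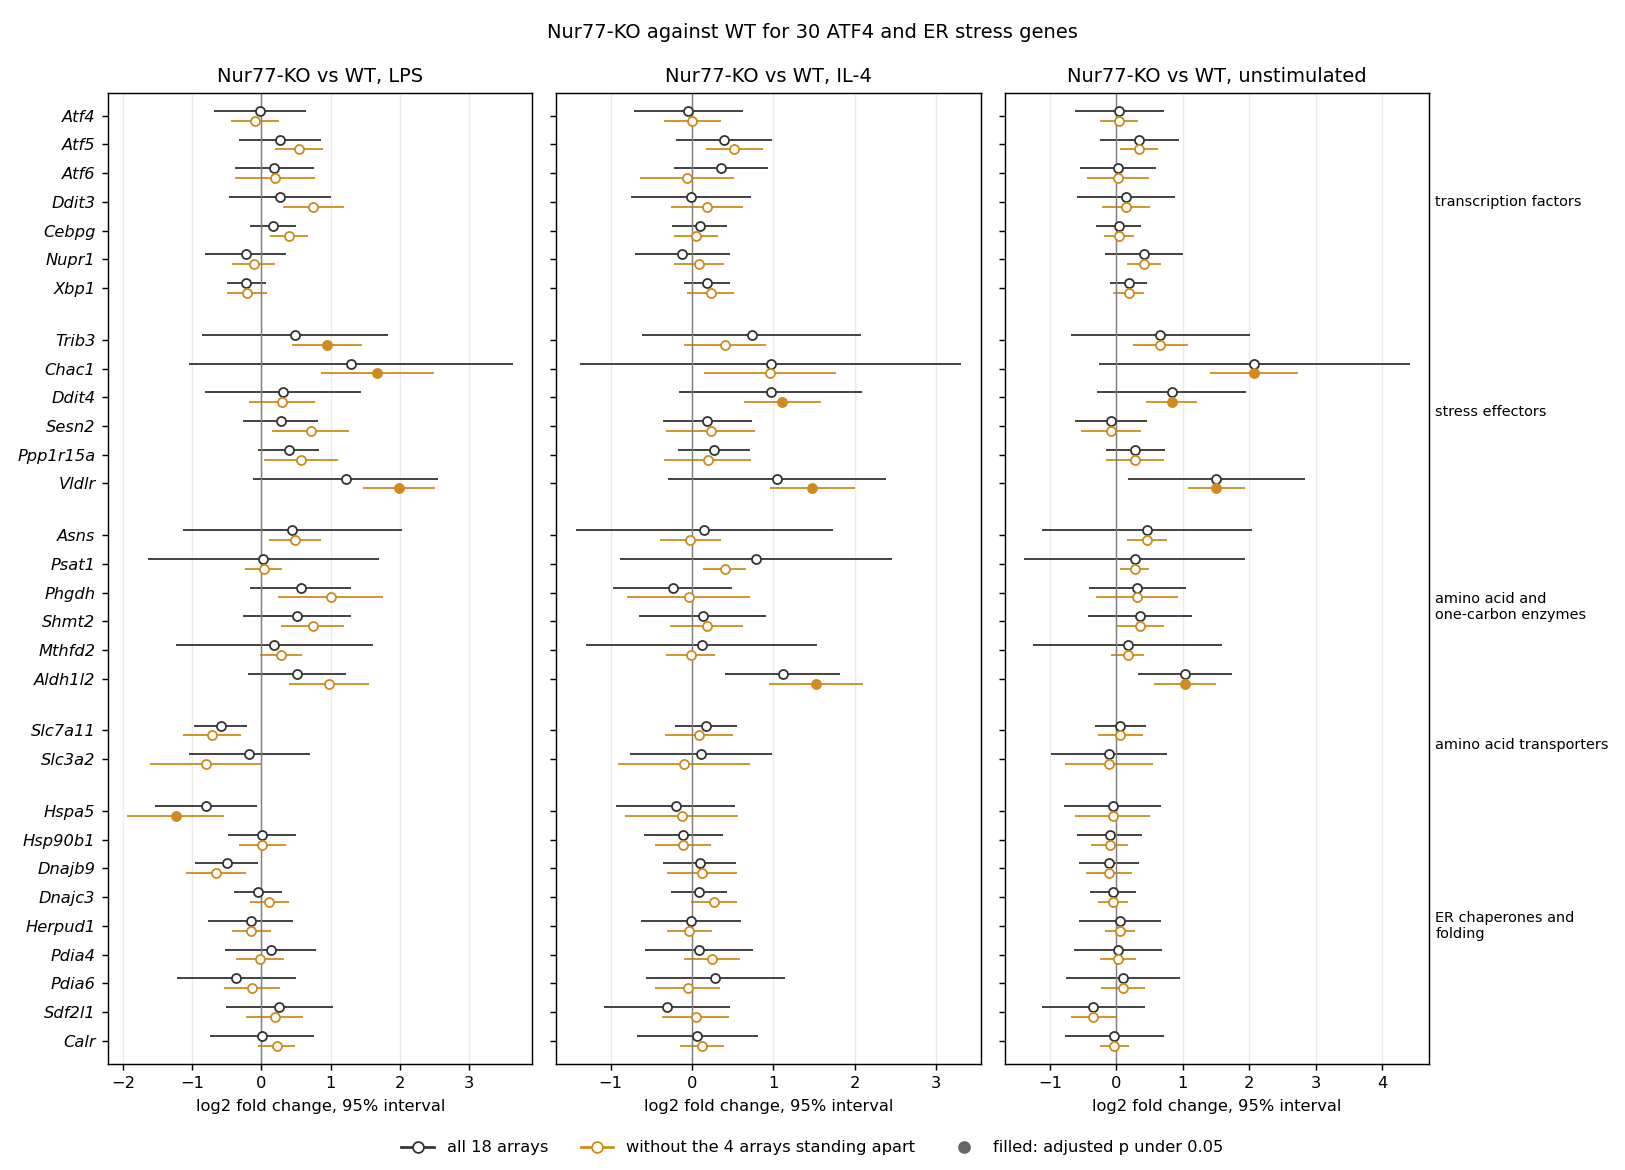
Log2 fold change of Nur77-KO over WT (x axis) with its 95% interval for the members (rows) with LPS, with IL-4 and unstimulated, over all 18 arrays (black) and without the 4 arrays with the lowest stromal markers of their groups (orange); filled points are called at an adjusted p under 0.05. All black points are open, and filled orange points are Vldlr in each panel and Chac1, Aldh1l2, Ddit4, Trib3 or Hspa5 in some.

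Stromal and neutrophil markers also differed between genotypes. Without the 4 arrays 6 of 8 stromal markers were called higher in unstimulated Nur77-KO BMM, 5 of 8 with LPS and 6 of 8 with IL-4. Of 7 neutrophil markers 6, 2 and 5 were called higher in these states, against 2.64%, 3.21% and 1.84% of all genes. The 4 arrays had the lowest stromal and highest neutrophil means of their groups. Leaving them out thus narrows the spread of these same markers, so the marker counts are a description. The mean log2 of the stromal markers on the remaining Nur77-KO arrays was 7.62 to 8.29, against 6.24 to 6.80 on the remaining WT arrays. Their part in the Vldlr, Chac1 and Aldh1l2 differences was not tested. Within slides, unstimulated Nur77-KO minus WT was 2.87 and 1.23 for Chac1, 1.46 and 1.19 for Vldlr, 0.63 and 1.07 for Aldh1l2, 0.83 and 0.70 for Ddit4 and 0.72 and 0.27 for Trib3 on the 2 slides that held both groups. On the slides with IL-4 arrays of both genotypes, Vldlr differed by -0.91 on the slide with the array labelled Nur77-KO IL-4 replicate 1 and by 1.78 on the other. With the slide as a fixed block the unstimulated differences were 0.85 for Chac1 (adjusted p = 0.948), 1.00 for Vldlr (adjusted p = 0.789), 1.02 for Aldh1l2 (adjusted p = 0.423), 0.22 for Ddit4 (not called) and -0.14 for Trib3 (adjusted p = 0.989), the last of these opposite in sign to the unblocked 0.66. Trib3 was at 0.15 with the mean of its detected probes.

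The response of the members to LPS or IL-4 was not shown to differ between genotypes: 0 of 30 were called for the difference of the genotype effect between LPS and unstimulated cells (0.0161% of all genes) and 0 between IL-4 and unstimulated cells (0.00805%). At an unadjusted p under 0.05 these numbered 2 (4.52% of all genes) and 0 (2.00%), and with a fold of at least 1.4 as well 1 (4.27%) and 0 (1.90%). The 2 were Slc7a11, whose LPS response was smaller in Nur77-KO BMM by 0.64 (-0.64, 95% interval -1.18 to -0.10, adjusted p = 1), and Xbp1 (-0.41, -0.80 to -0.01, adjusted p = 1). Slc7a11 on the Nur77-KO LPS arrays lay wholly below the WT LPS arrays, a genotype difference of -0.59 (SE 0.18, adjusted p = 0.278), and its probe detected on all 18 arrays gave -0.50. Dnajb9 was also wholly below with LPS (-0.50, SE 0.21, adjusted p = 0.513), but its other probe gave 0.21.

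The 4 arrays with the lowest stromal and highest neutrophil markers of their groups were also low in much of this gene set. The array labelled Nur77-KO LPS replicate 1 was below both other arrays of its group in 25 of 30 members (38.8% of all genes), WT LPS replicate 3 in 21 (42.3%), the array labelled Nur77-KO IL-4 replicate 1 in 20 (41.0%) and WT IL-4 replicate 1 in 18 (44.0%). They were lower by at least 1 on the log2 scale in 11, 10, 9 and 8 members, against 4.08%, 5.48%, 4.82% and 6.09% of all genes. Chac1, Asns and Psat1 were lower by at least 1 on all 4 of these arrays, 3 of 30 members, against 130 genes or 1.05% of all tested. Chac1 lay below the mean of the other arrays of its group by 4.32, 3.18, 2.37 and 2.40 (in the order of arrays above), Asns (asparagine synthetase) by 2.48, 2.36, 1.61 and 2.12, and Psat1 by 1.02, 1.01, 2.47 and 3.62. Atf4 was lower by 0.65, 0.87, 0.99 and 0.84. Nupr1 instead was higher on each of them, by 0.70, 1.04, 0.12 and 0.74. In all, 14 of the 30 members lay below both other arrays of their group on all 4 of these arrays, as did 8.85% of all genes: Atf4 among the transcription factors, 4 of 6 stress effectors (Trib3, Chac1, Ddit4 and Vldlr), 3 of 6 enzymes (Asns, Psat1 and Mthfd2), and 6 of 9 ER genes (Hsp90b1, Herpud1, Pdia4, Pdia6, Sdf2l1 and Calr). The 4 arrays were chosen with earlier results known, so these counts are a description, and the part of the cell type markers in them was not tested.

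**Figure D5:**
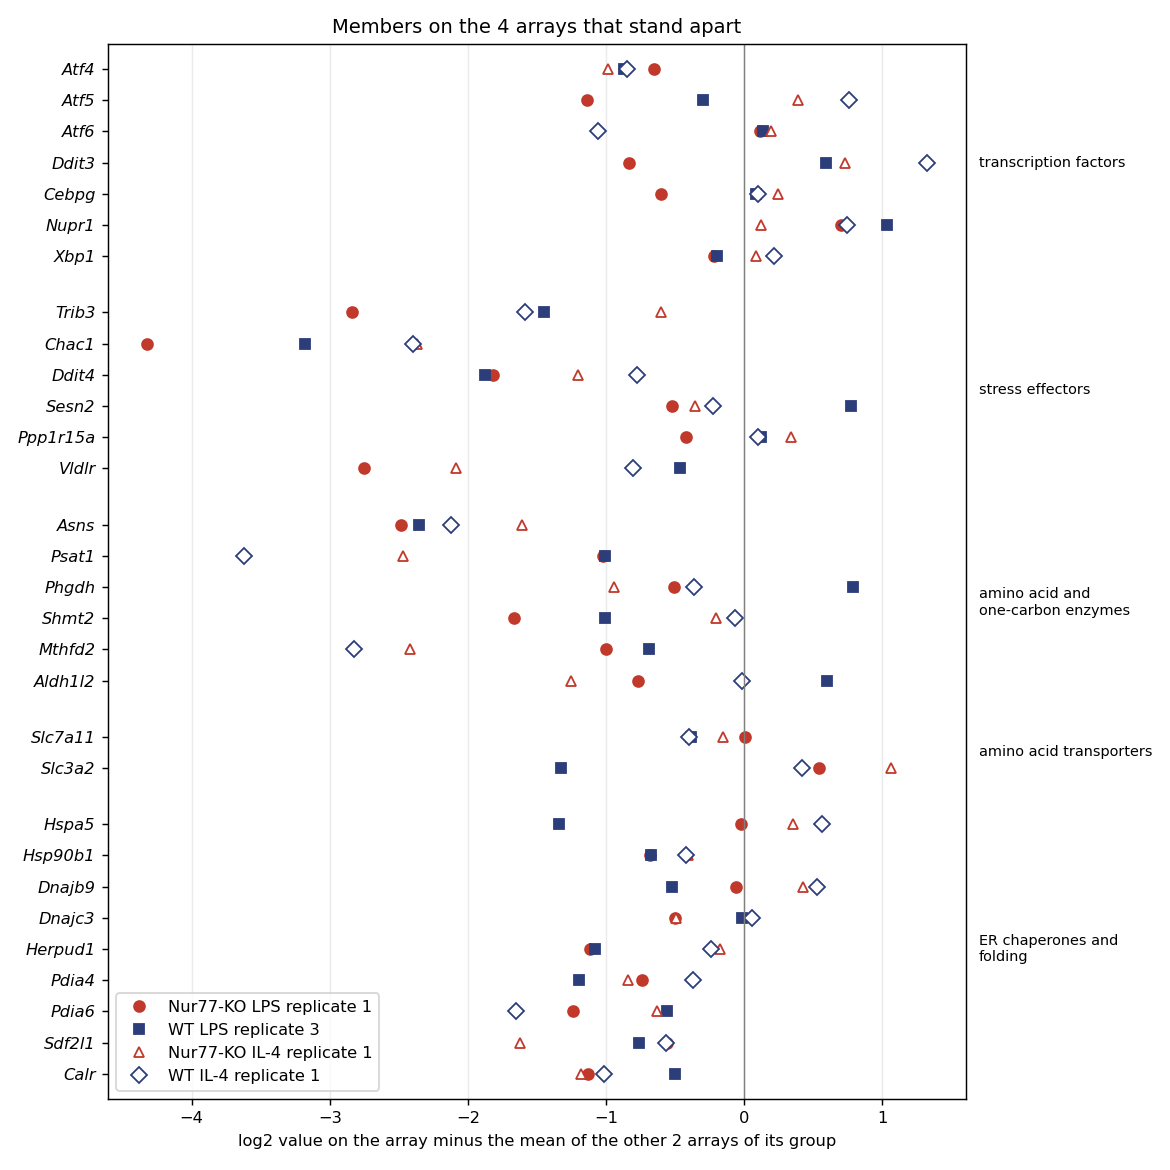
Difference in log2 intensity (x axis) between each of the 4 arrays with the lowest stromal markers of their groups and the mean of the other 2 arrays of its group, for the tested members (rows). Chac1, Asns and Psat1 lie at -1 or lower on all 4 arrays, while Nupr1 lies above 0 on all 4.

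Genes of the same pathways outside the set moved both ways with LPS, where 14.1% of all genes were higher and 23.7% lower in Nur77-KO and 15.5% and 24.3% in WT BMM. Of 15 tested of 16 other amino acid transporters, 4 rose and 1 fell in Nur77-KO BMM and 5 rose and 1 fell in WT BMM, led by Slc7a2, the arginine transporter of activated macrophages (4.97, adjusted p = 2.31e-10, and 5.26, adjusted p = 1.04e-10), Slc15a3 (1.98 and 2.52) and Slc7a8 (2.34 and 2.18). With IL-4 Slc7a2 rose too, by 3.28 (adjusted p = 5.3e-07) and 3.34 (adjusted p = 3.24e-07). Of 10 tested of 14 stress kinases and translation factors, 3 rose and 2 fell in each genotype, and the risers were Eif2ak2 (PKR; 2.83, adjusted p = 5.05e-10, and 2.94, adjusted p = 3.05e-10), Ppp1r15b, the constitutive counterpart of Ppp1r15a (2.33 and 2.90), and Nck1 (0.98 and 1.09). The aminoacyl-tRNA synthetases split in direction: 4 rose and 6 fell in Nur77-KO BMM, and 4 rose and 7 fell in WT BMM, of 19 tested of 20. Wars, which charges tRNA with tryptophan, rose by 2.18 (adjusted p = 6.17e-07) and 2.02 (adjusted p = 1.27e-06) and Rars by 1.23 and 1.28, while Qars fell by 1.14 and 1.39 (-1.14 and -1.39).

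Of 10 tested of 16 other ATF4 targets, 3 rose and 5 fell with LPS in Nur77-KO BMM and 2 rose and 5 fell in WT BMM. Cebpb rose by 1.95 and 1.89, and Map1lc3b, the autophagosome protein LC3B, fell by 1.66 and 1.78. The DNA damage gene Gadd45a differed by -2.92 (adjusted p = 5.61e-05) in Nur77-KO and -1.30 (adjusted p = 0.027) in WT BMM. Of 6 tested of 15 further serine, one-carbon and proline enzymes, 0 rose and 3 fell in each genotype, Mthfd1 by 1.54 and 1.47. Of 27 tested of 33 further ER folding and degradation genes, 1 rose and 5 fell in Nur77-KO BMM and 2 rose and 4 fell in WT BMM, Ero1b changing by -1.51 and -1.47 and P4hb by -0.99 and -0.73. Of these 6 lists, 4 thus had more genes lower than higher with LPS in both genotypes, as was the case over all tested genes. The transporters and the stress kinases and translation factors had more genes higher than lower. In the fit of 18 arrays 0 genes of these 6 lists were called between genotypes in any state. Without the 4 arrays, unstimulated Nur77-KO BMM had 2 of 10 other ATF4 targets higher, Gadd45a (0.88, adjusted p = 0.00151) and Bcat1 (1.01, adjusted p = 0.00438), and 3 of 15 other transporters, with Slc6a9, the glycine transporter, at 1.78 (adjusted p = 0.0023), where 2.64% of all genes were called higher. Bcat1 and Slc6a9 were also higher with LPS (1.15, adjusted p = 0.00665, and 1.89, adjusted p = 0.00555), while Gadd45a was lower by 0.79 with LPS (-0.79, adjusted p = 0.0102) and higher by 1.63 with IL-4 (adjusted p = 0.00012).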

How the data were processed

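RNA of BMM (2 genotypes, 3 states, 3 arrays each) was hybridised to 18 arrays of the Illumina MouseWG-6 v2 type. The deposited log2 values had been background-corrected, quantile normalized and log2 transformed by the authors with limma 3.10.2 in R 2.14.0, after GenomeStudio 2011.1, per the submitters' processing notes. The deposited non-normalized table held 45281 probes, each with its bead intensity and, as computed by the authors' array software, its detection p-value. A recomputation from these intensities differed from the deposited log2 values by at most 0.0588. Probes with 1 gene symbol (34885 of 45281) were named through their Entrez ID in RefSeq GRCm38.p6; 18 had several symbols and 10378 had no entry. A probe was used where 1 or more arrays had its detection p-value under 0.05, and the brightest such probe stood for its gene, which left 12417 genes.

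Group means were fitted over all 18 arrays with limma 3.58.1 in R 4.3.3 (moderated test, 2-sided, Benjamini-Hochberg adjustment within each comparison), which was tested on simulated data. A bound written as at least N-fold sets the mean of the detected group against, on each array of the other, the higher of the probe's own value and the lowest value among detected probes. Such a bound takes no account of the spread between arrays. Members were given array by array where they were called and did not overlap, up to 5 per direction and comparison by size of change, and other lists by up to 3 called genes; exceptions are named in the text. The members, lists and comparisons were chosen with earlier results of these data known. Replicate numbers were not used to pair the arrays in the main fit. Alternatives were other normalizations, filters, probe rules, variance priors, slide and replicate blocks, and left-out arrays; leaving out 2 or 4 arrays was added after seeing the data. The number of arrays limits the precision.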

Additional observations from a re-analysis of the deposited data

How the results depend on the processing

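For the genotype comparisons of unstimulated cells, where 0 members were called, a fit of only the groups compared called 3, leaving out the 2 Nur77-KO arrays low in Npy called 1, leaving out the 4 arrays called 4, and an unadjusted p under 0.05 with a fold of at least 1.4 called 2. With LPS (0 called) the counts were 1 without background correction, 1 without the 2 arrays, 4 without the 4 arrays and 3 by the unadjusted rule, and with IL-4 (0 called) they were 2 without the 2 arrays, 3 without the 4 arrays and 1 by the unadjusted rule. The unadjusted rule called 1 member for the difference of the genotype effect between LPS and unstimulated cells. Median in place of quantile normalization left 4 of 14 calls of LPS in WT BMM, 0 of 3 calls of IL-4 in each genotype, and 7 of 11 (Nur77-KO) and 5 of 13 (WT) calls of LPS against IL-4. It moved the median of all genes by 0.47 for Nur77-KO against WT in unstimulated cells, where all 30 members then lay above 0, by 0.21 with IL-4, by -0.38 for LPS and -0.31 for IL-4 in Nur77-KO BMM, by -0.10 for IL-4 in WT BMM, and by -0.39 and -0.23 for the differences of the genotype effect; the share of all calls that were higher was 89.5% against 61.5% in unstimulated cells, 15.7% against 37.3% for LPS in Nur77-KO BMM, and 40.2% against 56.3% (Nur77-KO) and 70% against 54.5% (WT) for IL-4. Of the genotype calls with LPS 100% were then higher, against 54.2%, and with cyclic loess 75% were, and 74.3% in unstimulated cells. The genotype shares rest on few genes. In unstimulated cells 13 of all genes were called in the main fit and 19 with median normalization. With LPS 24 of all genes were called in the main fit. For IL-4 in WT BMM the count was 1 when only the groups compared were fitted, 6 without the 4 arrays and 6 by the unadjusted rule, and in Nur77-KO BMM it was 1 with slide as a fixed block and 8 without the 4 arrays. LPS against IL-4 gave 17 calls in Nur77-KO and 21 in WT BMM without the 4 arrays. Cebpg, LPS against IL-4 in Nur77-KO BMM, turned to 0.0017 with the mean of its detected probes. The cause of these changes was not tested. Leaving out 1 array at a time gave counts of 0 to 0 for the genotype in unstimulated cells, 0 to 1 with LPS (1 without Nur77-KO LPS replicate 1) and 0 to 0 with IL-4, 9 to 14 for LPS in Nur77-KO and 11 to 14 in WT BMM, 1 to 3 for IL-4 in each genotype (1 in Nur77-KO without Nur77-KO unstimulated replicate 2), 10 to 13 and 13 to 15 for LPS against IL-4 in Nur77-KO and WT BMM, and 0 to 0 for both differences of the genotype effect. Of the 56 calls of stimulus comparisons, 56 kept their call without the 4 arrays, 56 with the slide as a random block, 49 with it as a fixed block, 50 with cyclic loess and 24 with median normalization. Without the 2 Nur77-KO arrays low in Npy 53 were kept, and Slc3a2, Pdia4 and Dnajc3 with LPS in Nur77-KO BMM were lost. Same-numbered arrays correlated at a mean of 0.058 (-0.318 to 0.524) in their deviations from the group means, against -0.020 for other numbers. Of the 18 arrays, 11 correlated best with their own number. With the replicate number as a block, 55 of the 56 calls were kept. Slc7a11 with IL-4 in WT BMM was then lost (2 calls there).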
